A study of Mus musculus with 6 samples.

Results

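Müllerian duct patterning genes were followed in mouse oviduct as 9 listed regulators of duct formation and oviduct identity: Pax2, Pax8, Emx2, Lhx1, Wnt4, Wnt5a, Wnt7a, Dach1 and Dach2. Members were the probe sets (groups of short array probes read as 1 value) that the platform annotation assigns to 1 of these genes and to no other gene. This gave 19 of 45037 probe sets, covering 8 of the 18193 genes measured. Pax2 had no such probe set and was not analysed here. The samples were whole oviducts of MF1 females, a strain of mice, mated with wild-type males and collected at embryonic day 2.5, when embryos travel through the tube. There were 3 samples of genotype Wt1 +/+ (wild type) and 3 of genotype Wt1 ko/+ (heterozygous), with 1 array each. The labels give neither the age of the females nor the construction of the ko allele, and do not say whether a sample was 1 animal or a pool. The p-values therefore rest on sample-to-sample spread that may be partly technical.

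The oviduct, uterus and upper vagina arise from the Müllerian ducts, epithelial tubes that grow beside the mesonephric (Wolffian) ducts of the embryo. Pax and LIM homeobox transcription factors act in the duct epithelium. Wnt4 is needed for the duct to start forming, Wnt7a from the epithelium keeps the tract in its regional pattern, and Wnt5a acts from the mesenchyme. Wt1, a zinc finger transcription factor of the coelomic lining and gonad, is needed for the urogenital organs to form, and the comparison asks how oviduct transcripts differ when 1 allele is lost.

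None of the 19 member probe sets differed between the genotypes past an adjusted p of 0.05 (limma, Benjamini-Hochberg adjusted over all probe sets, where 3 of 45037, or 0.00666%, passed). Of the members, 10 had a higher and 9 a lower heterozygous mean, with a median log2 change of 0.01 against -0.01 over all probe sets. At an unadjusted limma p under 0.05 there was 1 member probe set, of Dach2, against 5.18% of all probe sets. The genotypes did not overlap in 1 of 19 member probe sets, against 10.5% of all. A count of 1 in 19 is too small to tell either share from that of the whole array. Log2 changes are heterozygous minus wild type throughout, with the moderated standard error (SE) of limma, and levels are log2 intensities after quantile normalization. Where 3 values are given for a genotype they follow the order of replicates 1, 2 and 3. Levels of different probe sets are not compared, because each has its own sensitivity.

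Wt1 itself gave 12.17, 12.06 and 11.67 in wild type and 11.12, 11.27 and 11.79 in heterozygous. The heterozygous mean was lower by 1.48-fold, but heterozygous replicate 3 lay above wild-type replicate 3, so the groups overlapped (limma adjusted p = 0.933 over probe sets). The oviduct label was checked on marker genes: all 9 measured secretory and all 9 measured ciliated epithelial markers lay above the array-wide median (the median over all probe sets of the mean of the 6 arrays) in at least 1 genotype. Of the markers of oocytes and early embryos 1 of 8 did so, and of mesonephric duct remnants and kidney tubules 1 of 7. Among ovary markers it was 3 of 6 and among uterine gland markers 4 of 7. Of all 18193 genes, 12029 lay above that median in at least 1 genotype. Smooth muscle markers had a higher heterozygous mean in 10 of 10 genes and stromal fibroblast markers in 9 of 10, and 0 of these passed the threshold over all genes. Endothelial markers were higher in 8 of 8. The mean log2 difference was 0.59 for the smooth muscle list, 0.36 for the endothelial list and 0.30 for the stromal list. The mean difference was 1.18 for adipocyte markers, whose genes ran from -0.03 to 2.22, and 0.79 for uterine gland markers, from -0.06 to 2.50, again with 0 past the threshold. In whole tissue, a different number of cells of a type and a different amount of RNA per cell cannot be told apart. The 3' to 5' ratio of the Actb control, a sign of RNA integrity, was 1.74, 2.40 and 5.90 in wild type and 2.49, 1.67 and 1.71 in heterozygous.

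**Figure D1:**
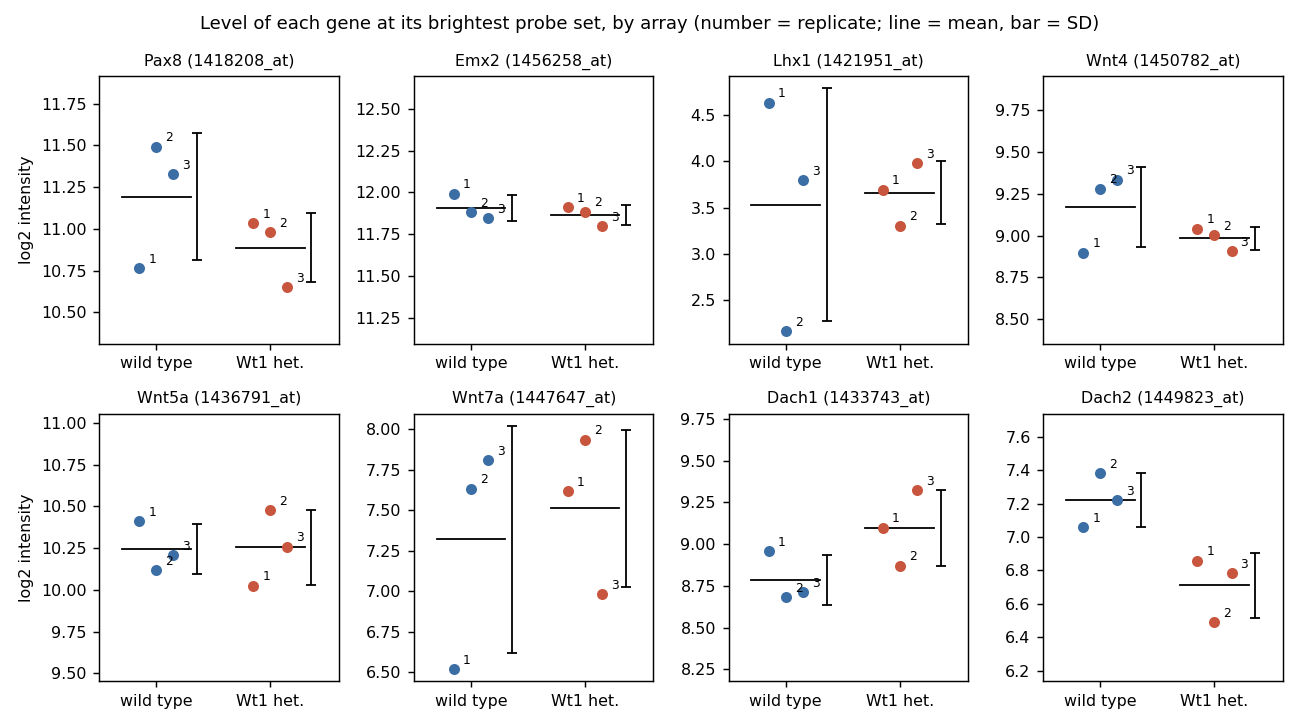
Log2 intensity (vertical axis, after quantile normalization) of each of the 8 measured genes at its brightest probe set, in 3 wild-type and 3 heterozygous oviduct samples; each point is an array with its replicate number, lines are group means and bars SDs. The genotypes overlap in 7 genes, and for Dach2 the highest heterozygous value (6.86) lies below the lowest wild-type value (7.06).

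Pax8 encodes a paired-domain transcription factor that marks the secretory cells of the oviduct epithelium. Its brighter probe set, 1418208_at, gave 10.76, 11.49 and 11.33 in wild type and 11.03, 10.98 and 10.65 in heterozygous. Wild-type replicates 2 and 3 were the highest arrays, while wild-type replicate 1 lay among the heterozygous values. The means were 11.19 ± 0.38 (SD, n = 3) and 10.89 ± 0.21 (SD, n = 3), a log2 change of -0.31 (SE 0.24), with a 95% interval from -0.90 to 0.29 (limma adjusted p = 0.933, exact permutation p = 0.3). The arrays lowest for Pax8, heterozygous replicate 3 and wild-type replicate 1, were also the lowest in the mean deviation of the 9 secretory epithelial markers, at -0.07 and -0.18 on the log2 scale, against 0.04 to 0.09 in the other arrays. The markers did not move as one. Sox17 (13.29 in wild-type replicate 1 and 13.41 in heterozygous replicate 3) and Cdh1 (13.26 and 13.38), both of that list, were highest in these same arrays. Lcn2 (11.98 and 12.10), Msln (8.94 and 9.28), Cldn3 (12.08 and 12.03) and Krt8 (12.71 and 12.93) were lowest in them. Ovgp1, Epcam and Krt18 had neither order. The mean deviation of the 9 ciliated markers was 0.11 and 0.03 in wild-type replicate 1 and heterozygous replicate 3. The part of epithelial content in the Pax8 values was not tested. Within the 3 arrays of lower Actb ratio the Pax8 difference was 0.05, with wild-type replicate 1 against heterozygous replicates 2 and 3. Within the 3 of higher ratio it was -0.38, with heterozygous replicate 1 against wild-type replicates 2 and 3. A single array thus stood for 1 genotype in each class. Without wild-type replicate 1 the log2 change was -0.52 (limma adjusted p = 0.523), and without wild-type replicate 2 it was -0.16. The dim probe set 1446561_at of Pax8 ranged from 4.75 to 6.26 and gave a log2 change of 0.06 (SE 0.51).

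The promoter windows of the patterning genes were searched for the letters GTGGGAG, the core of the known Wt1 motif, because Wt1 dosage differs between the groups. These letters share bases with motifs of related zinc finger proteins such as Egr1. RefSeq promoter windows (build GRCm38.p6, 250 bases before to 50 after a start site) were given for 8 of the 9 genes, Pax2 included, with 11 windows in all. On either strand 2 of the 11 windows held the letters, those of Pax8 and Wnt7a, where 9.73% of all 32851 windows of the same length did. The stretches around both matches are shown 5′ to 3′ along the gene's strand, with the match in capitals; it reads as the reverse complement, so the motif lies on the opposite strand. A match is a description of the sequence only.
Pax8, chr2:24475772-24475849, minus strand, match starting 226 bases before the start site: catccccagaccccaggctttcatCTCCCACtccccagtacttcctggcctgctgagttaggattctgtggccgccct
Wnt7a, chr6:91411470-91411570, minus strand, match starting 170 bases before the start site: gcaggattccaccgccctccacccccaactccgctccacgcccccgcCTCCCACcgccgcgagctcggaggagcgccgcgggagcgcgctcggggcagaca
The windows of Emx2, Lhx1, Wnt4, Dach1, Dach2 and Pax2 do not contain these letters. The GC content of the 11 windows ranged from 45.3%, in a Dach2 window, to 84.3% for Wnt4, with a median of 52.7% over all windows.

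Emx2, a homeobox gene without which the genital tract does not form, was measured by 1 bright probe set. It gave 11.99, 11.88 and 11.85 in wild type and 11.91, 11.88 and 11.80 in heterozygous. The arrays spanned 0.19 on the log2 scale, the narrowest range of the 19 probe sets. The log2 change was -0.04 (SE 0.13), with a 95% interval from -0.37 to 0.28 (limma adjusted p = 0.976, exact permutation p = 0.6). The interval leaves room for differences smaller than these bounds, so the genotypes are not shown to be equal. Over the alternatives the Emx2 change ran from -0.07 to -0.0004, negative throughout but near 0.

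Lhx1 encodes a LIM homeodomain factor needed in the duct epithelium as it elongates. Both of its probe sets were dim, below the array-wide median in both genotypes. Probe set 1421951_at gave 4.63, 2.16 and 3.80 in wild type and 3.69, 3.30 and 3.98 in heterozygous. The wild-type values alone spanned the heterozygous ones, and the log2 change was 0.13 (SE 0.64). Probe set 1450428_at ran from 0.17 in heterozygous replicate 3 to 5.41 in wild-type replicate 1. Its log2 change of -1.74 had a standard error of 1.29 and a 95% interval from -4.91 to 1.44 (limma adjusted p = 0.933). Deposited intensities behind that span were 1.06 to 40.4, against array medians between 151.6 and 167.8. No detection calls were used, so whether Lhx1 lay above background in adult oviduct is unknown.

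The Wnt ligands were covered by 9 probe sets. Wnt4 signals from mesenchyme to start duct invagination and is also made in adult reproductive tract. Its brighter probe set, 1450782_at, gave 8.90, 9.28 and 9.34 in wild type and 9.04, 9.00 and 8.91 in heterozygous. Wild-type replicates 2 and 3 stood above all other arrays, and wild-type replicate 1 was the lowest. The means were 9.17 ± 0.24 and 8.98 ± 0.07 (SD, n = 3 each), a log2 change of -0.19 (SE 0.17), with a 95% interval from -0.61 to 0.24 (limma adjusted p = 0.933, exact permutation p = 0.4).

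The other Wnt4 probe set, 1441687_at, had the same order at the top with a wider gap. It gave 7.45, 8.67 and 8.79 in wild type and 7.60, 7.63 and 7.57 in heterozygous. The 3 heterozygous arrays lay within a range of 0.05, and wild-type replicate 1 lay just below them. The log2 change was -0.70 (SE 0.38), with a 95% interval from -1.64 to 0.23 (limma adjusted p = 0.933, exact permutation p = 0.4). Without wild-type replicate 1 it was -1.13 (limma adjusted p = 0.244), and without wild-type replicate 3 it was -0.46. Wild-type replicates 2 and 3 were 2 of the 3 arrays with a higher Actb 3' to 5' ratio, heterozygous replicate 1 being the other one. With that ratio as a covariate the log2 changes were -0.07 and -0.38 at the brighter and the dimmer probe set. Within the 3 arrays of higher ratio they were -0.27 and -1.13, and within the 3 of lower ratio 0.06 and 0.15. The higher class sets 1 heterozygous against 2 wild-type arrays, and the difference between the classes was not tested.

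Wnt5a, a ligand of the mesenchyme that drives outgrowth of the tract and gland formation in the uterus, was measured by 4 probe sets. The brightest, 1436791_at, gave 10.41, 10.12 and 10.21 in wild type and 10.03, 10.48 and 10.26 in heterozygous. The groups interleaved, and the log2 change was 0.01 (SE 0.18), with a 95% interval from -0.43 to 0.45 (limma adjusted p = 0.996, exact permutation p = 1.0). The other Wnt5a probe sets gave log2 changes of 0.17, 0.09 and -0.03, each with overlap. Heterozygous replicate 2 was the highest array at 3 of the 4 probe sets, by 0.55 above the probe set mean at 1448818_at. That array also had the highest mean deviation of the 10 stromal fibroblast markers, 0.28, and of the 10 smooth muscle markers, 0.61. The same array was highest for adipocyte (0.95), endothelial (0.27) and leukocyte (0.27) markers too, and lowest for ciliated markers (-0.19). The part of mesenchymal content in the Wnt5a values was not tested.

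Wnt7a is made by the luminal epithelium, where it keeps the oviduct distinct from the uterus. Probe set 1447647_at gave 6.52, 7.63 and 7.81 in wild type and 7.62, 7.94 and 6.98 in heterozygous. Probe set 1423367_at gave 6.58, 7.43 and 7.64 in wild type and 7.18, 7.68 and 6.43 in heterozygous. At both, wild-type replicate 1 and heterozygous replicate 3 were the low arrays and heterozygous replicate 2 the highest, so the spread within a genotype exceeded the difference between genotypes. The log2 changes were 0.19 (SE 0.43) and -0.12 (SE 0.42) (limma adjusted p = 0.967 and 0.978). The low pair is the same pair of arrays as at the brighter Pax8 probe set. It was also the lowest pair at both Wnt4 probe sets. There heterozygous replicate 3, at 8.91 and 7.57, lay close to the other heterozygous arrays. Not all members had this order: wild-type replicate 1 was the highest array for Emx2 and for both Lhx1 probe sets. The remaining probe set, 1458334_at, was dim, between 2.92 and 5.51, and went the other way for heterozygous replicate 3, which was its highest array. It gave a log2 change of 1.10 (SE 0.51), with a 95% interval from -0.16 to 2.36 (limma adjusted p = 0.933, exact permutation p = 0.2).

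**Figure D2:**
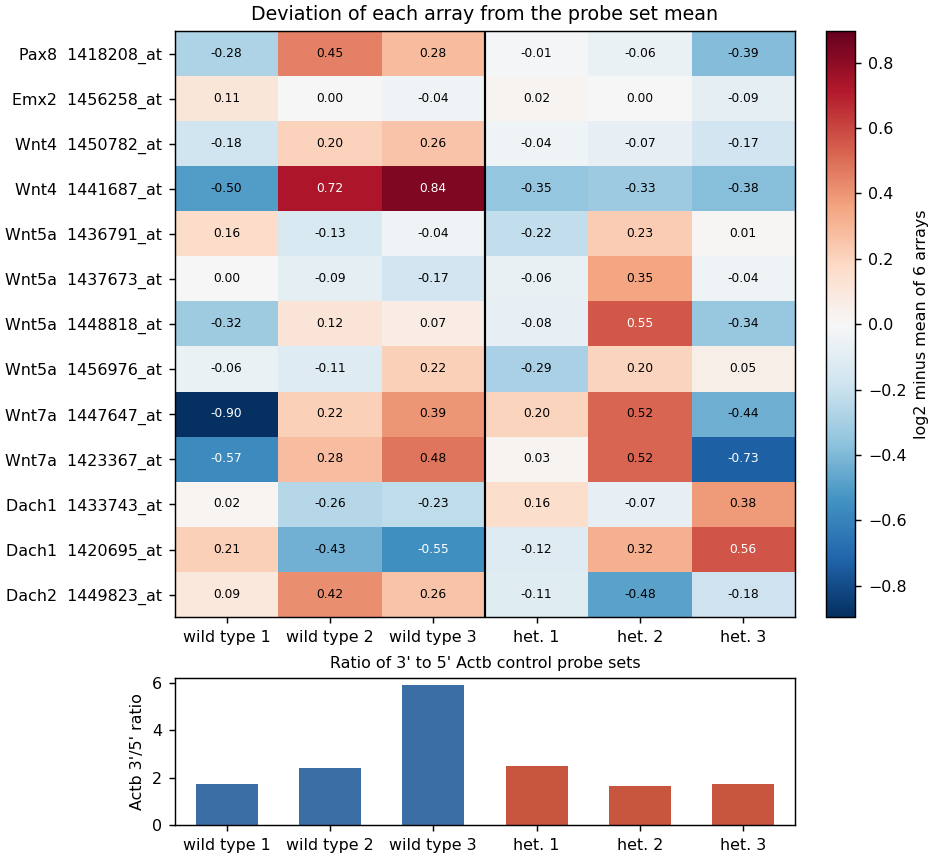
Upper panel, log2 value of each array minus the mean of the 6 arrays (colour and printed value) for the 13 member probe sets whose mean exceeds that of 40% of all probe sets; lower panel, the Actb 3' to 5' intensity ratio per array, with wild type in blue and heterozygous in red. Pax8 and both Wnt7a probe sets are low in wild-type replicate 1 and heterozygous replicate 3, and both Wnt4 probe sets are high in wild-type replicates 2 and 3.

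Dach1 and Dach2 encode nuclear cofactors that act with proteins of the Eya and sine oculis families, and are needed together for the female tract to form. Dach1 at its brightest probe set, 1433743_at, gave 8.96, 8.68 and 8.71 in wild type and 9.10, 8.87 and 9.32 in heterozygous. Heterozygous replicates 1 and 3 stood above every wild-type array, and heterozygous replicate 2 fell below wild-type replicate 1. The means were 8.79 ± 0.15 and 9.10 ± 0.23 (SD, n = 3 each), a log2 change of 0.31 (SE 0.18), with a 95% interval from -0.13 to 0.75 (limma adjusted p = 0.933, exact permutation p = 0.2). At probe set 1420695_at Dach1 gave 7.76, 7.12 and 7.00 in wild type and 7.43, 7.87 and 8.11 in heterozygous. The log2 change there was 0.51 (SE 0.28) (limma adjusted p = 0.933), and wild-type replicates 2 and 3 were again the low arrays. With the Actb ratio as a covariate it was 0.26. The remaining probe set, 1420694_a_at, was dim and noisy, from 1.98 to 4.76, with a log2 change of 0.12 and a standard error of 0.90.

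Dach2 was the member with the smallest p. Probe set 1449823_at gave 7.06, 7.38 and 7.22 in wild type and 6.86, 6.49 and 6.78 in heterozygous. Each heterozygous array lay below each wild-type array, with a gap of 0.20 between the nearest values. The means were 7.22 ± 0.16 and 6.71 ± 0.19 (SD, n = 3 each), 1.43-fold lower, a log2 change of -0.51 (SE 0.17), with a 95% interval from -0.94 to -0.08. The limma p over probe sets was 0.0264 and did not survive adjustment (adjusted p = 0.918). In the separate limma fit over genes the adjusted p was 0.663. The exact permutation p was 0.1, the smallest that 3 arrays against 3 can give. Both group means lay below the array-wide median, 7.28. Within the arrays of higher Actb ratio the Dach2 change was -0.44, and within those of lower ratio it was -0.42. Each class sets 1 array of a genotype against 2 of the other. As the groups did not overlap, any such split gives a negative change. The part of RNA integrity in the Dach2 values was not tested. Over the alternatives the Dach2 change ran from -0.66 with array weights to -0.40 without heterozygous replicate 2. The other Dach2 probe set, 1458012_at, gave 5.59, 5.33 and 5.52 in wild type and 5.91, 4.99 and 4.25 in heterozygous. There heterozygous replicate 1 was the highest array and the others were the lowest, with a log2 change of -0.43 and a standard error of 0.42 (limma adjusted p = 0.933). The paralogs Dach1 and Dach2 thus gave changes of opposite sign at their brightest probe sets, neither past the threshold, and the difference between them was not tested.

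**Figure D3:**
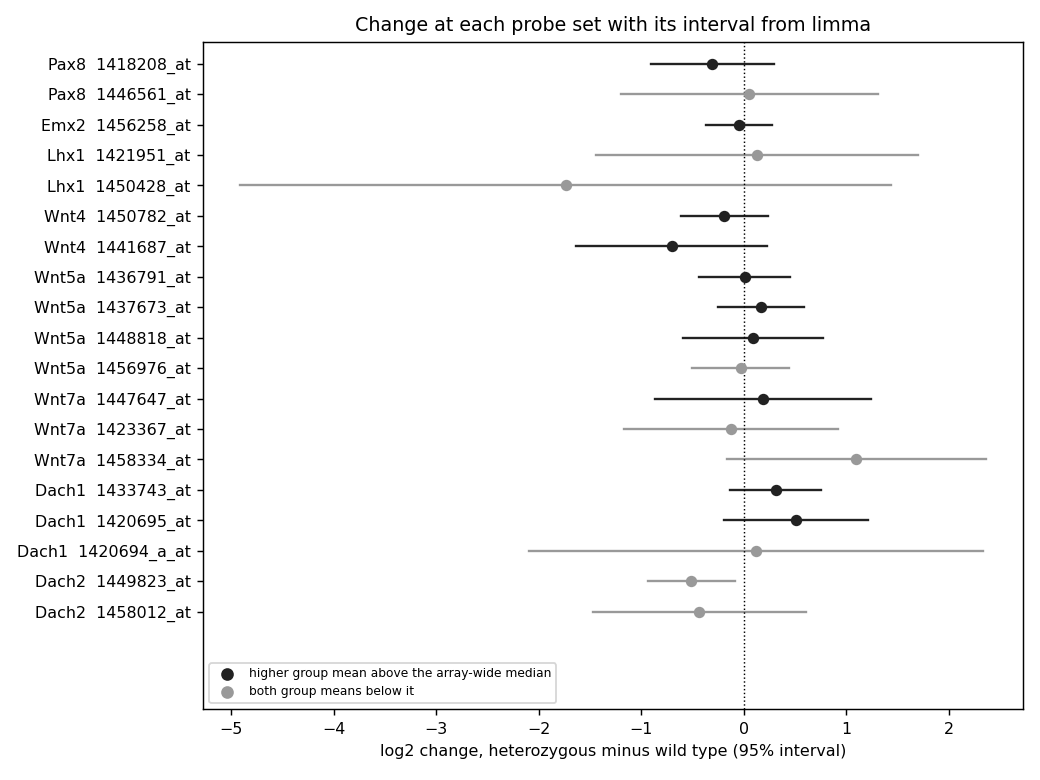
Log2 change, heterozygous minus wild type, at each of the 19 member probe sets (horizontal axis), with the 95% interval from limma over 3 arrays per genotype; black marks probe sets above the array-wide median in at least 1 genotype, grey those below it in both. Every interval includes 0 except that of Dach2 at 1449823_at, from -0.94 to -0.08 before adjustment.

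Counted per gene, with the brightest probe set standing for each, 4 of the 8 measured members had a higher and 4 a lower heterozygous mean. Their median log2 change was -0.02 against -0.03 over all 18193 genes, and their range was -0.51 to 0.31. No member gene passed (limma adjusted p of 0.663 to 0.994 over genes, where 3 genes, or 0.0165%, passed), and 1, Dach2, had an unadjusted p under 0.05, against 6.44% of all genes. The groups did not overlap in that 1 gene of 8, against 11.8% of all genes.

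The other genes of these pathways were read from 6 lists with 138 different genes, of which 134 were measured and 0 passed the threshold over all genes. At an unadjusted limma p under 0.05 there were 12 of the 134, against 6.44% of all genes. Of 16 further Wnt ligands, 4 were higher and 12 lower, with a median log2 change of -0.15 and 3 unadjusted p-values under 0.05, all lower, where 686 of all 18193 genes were lower at that p. One of those, Wnt5b, a close relative of Wnt5a, stood at -0.72 (SE 0.28) at a probe set whose suffix marks possible cross-hybridization, and its groups did not overlap (limma adjusted p = 0.748 over genes). Wnt16, not among those, stood at -0.42, with overlap. Only 6 of the 16 lay above the array-wide median in either genotype.

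Of 37 Wnt receptors, secretion factors, transducers and feedback targets, 14 were higher and 23 lower, with a median of -0.03. Nkd2, a feedback inhibitor of Wnt signalling, gave 8.60, 8.92 and 9.18 in wild type and 8.24, 8.12 and 8.46 in heterozygous. Its groups did not overlap, with a log2 change of -0.62 and a standard error of 0.19 (limma adjusted p = 0.660 over genes). Rspo3, a secreted enhancer of Wnt signalling, gave 10.39, 9.83 and 10.06 in wild type and 10.50, 10.74 and 10.67 in heterozygous. All 3 heterozygous arrays exceeded all 3 wild-type arrays, with a log2 change of 0.54 and a standard error of 0.18 (limma adjusted p = 0.691 over genes).

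Of 13 secreted Wnt antagonists, 6 were higher and 7 lower, with a median of -0.01, and the groups did not overlap in 5, 2 of them higher and 3 lower, against 11.8% of all genes. Sfrp4, a decoy receptor for Wnt ligands, gave 10.45, 10.32 and 10.42 in wild type and 10.66, 10.95 and 10.80 in heterozygous. Its log2 change was 0.41 (SE 0.13), and that of Frzb, another decoy of the same family, was 0.51 (SE 0.19) (limma adjusted p = 0.670 and 0.738 over genes). These genes were chosen for a small p, and the stromal marker mean also had a higher heterozygous value, 0.15 against -0.15 on the log2 scale. The endothelial marker mean was 0.18 against -0.18, and the smooth muscle marker mean 0.29 against -0.29. The part of stromal, endothelial or smooth muscle content in the Rspo3, Sfrp4 and Frzb values was not tested.

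Of 33 further regulators of reproductive tract development, 18 were higher and 15 lower, with a median of 0.04. Amhr2, the receptor through which anti-Müllerian hormone removes the ducts in males, stood at -0.69 (SE 0.26) and overlapped between the genotypes (limma adjusted p = 0.745 over genes). Its probe set carried the same suffix as that of Wnt5b. Without such probe sets the Amhr2 change was -0.23, and with the mean over all its probe sets it was -1.47. Rarb, a retinoic acid receptor, stood at 0.43. In the Pax-Six-Eya-Dach network, 8 of 18 genes were higher and 10 lower, with a median of -0.04, and its brighter genes of smallest p, Pax5 and Six5, stood at 0.26 and -0.17. With the mean over its probe sets Pax5 was at -0.53. Of 19 LIM homeobox genes and partners of LIM and Emx factors, 10 were higher and 9 lower, with a median of 0.04. Ldb2, a cofactor that binds LIM domains, stood at 0.40 and Rlim, which turns over such cofactors, at 0.15. These 6 named genes overlapped between the genotypes. In the same lists the groups did not overlap in 3 of 33 tract regulators and 1 of 18 network genes. They did not overlap in 2 of 19 LIM and Emx genes either. The counts were 3 of 16 for the further Wnt ligands and 6 of 37 for the Wnt receptors, secretion factors, transducers and feedback targets. Over all genes the share was 11.8%.

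**Figure D4:**
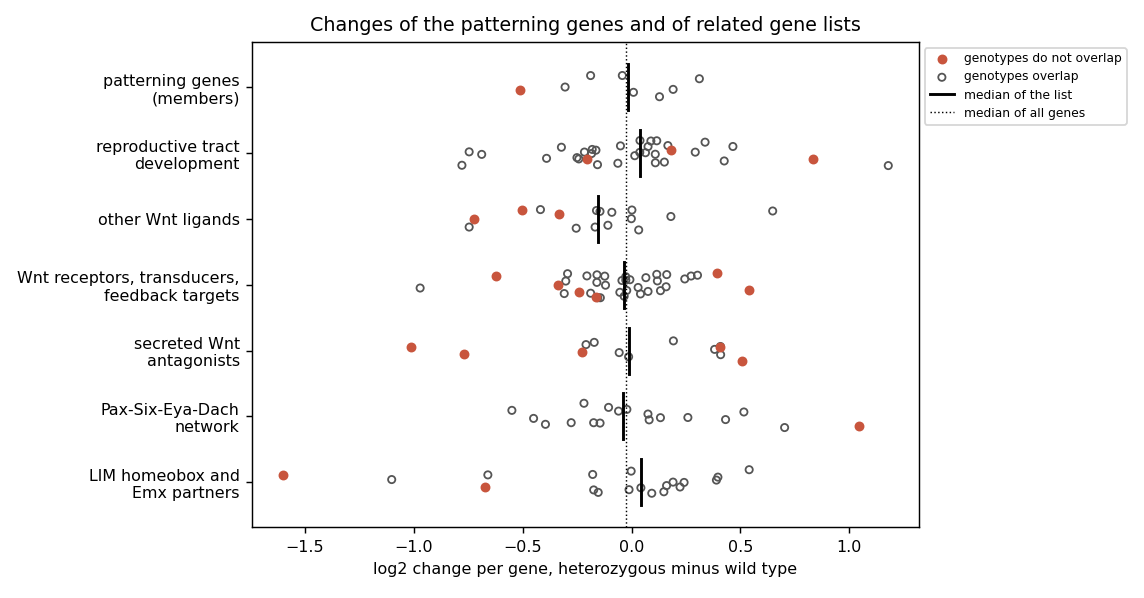
Log2 change per gene, heterozygous minus wild type (horizontal axis), for the 8 measured patterning genes and for 6 lists of related genes; filled points are genes whose genotypes do not overlap, open points those that do, bars list medians and the dotted line the median of all genes (-0.03). The list medians lie between -0.15, for the other Wnt ligands, and 0.04.

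The genes most like each brighter member over the 6 arrays were found by the root mean square difference of log2 values centred on each gene's mean, among 11775 genes with a mean above the median. They were Smr2 and Kmt2a for Pax8 (differences of 0.03 and 0.06), Nol9 and Nomo1 for Wnt4 (both 0.03), and Mrgprf and Gpr153 for Wnt7a (0.09 and 0.13). For Dach1 they were Rmi1 and Chac2 (both 0.05), for Wnt5a 2810013P06Rik and Tmpo (0.05 and 0.06), and for Emx2 Echdc3 and Mrpl45 (both 0.02). The median difference to all genes searched was 0.19 for Emx2 and 0.52 for Wnt7a, the flattest and the most variable of these members. With 6 arrays and so many genes, close matches are found for any gene, so they are given as a description.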

How the data were processed

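RNA of 6 oviduct samples was labelled with biotin from 1 µg of total RNA, per the labels' protocols. The authors deposited linear intensities, 1 for each probe set on each array. How probes were summarised is not given in the labels or file used here. The values had been scaled to a common trimmed mean per array, as found from the values. The 64 control probe sets were left out, a floor of 1 was set before the log2 transform, and arrays were quantile normalized because their medians spanned 0.147 (log2). Of the probe sets, 34945 had 1 gene symbol, 932 had several and 9160 were not listed. Entrez identifiers of 34741 matched RefSeq, and 0 symbols changed.

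Probe sets, and genes by their brightest probe set, were fitted with limma 3.58.1 (R 4.3.3). Its two-sided p-values were adjusted by Benjamini-Hochberg, and 0.05 was the threshold. Exact permutation tests were two-sided over 20 assignments. The scripts were tested on simulated data. The number of arrays limits the precision. Members, lists and tests were chosen with earlier results of these data known. Named list genes were up to 4 past the threshold, otherwise the 2 of smallest p with a group mean above the array-wide median. Similar genes were the 2 of smallest difference. Alternatives are given in the closing section. Protein identity was not analysed here, nor was a Wnt5a promoter window.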

Additional observations from a re-analysis of the deposited data

How the results depend on the processing

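No member probe set, member gene or list gene passed the threshold under any of the alternatives run with limma. Of 383 alternative values of members, 341 kept their direction. These pool probe sets with genes, whose values mostly repeat those of the brightest probe set, so they are not separate values. Counted apart, 11 member probe sets and 5 member genes kept their direction in every alternative. The whole-array count was 3 probe sets. It became 1 with an offset of 16 before log2, 14 with array weights, 0 with the replicate number as a block, and 0 with the Actb ratio as a covariate or as a block of its classes (added after seeing the data). It was 0 to 1 when any array was left out. Over genes the count was also 3. It became 6 once dim probe sets were filtered out, 1 under eBayes with trend and robust, 7 with weighted arrays, and 0 with the replicate block, the covariate or the classes. It was 0 when any array was left out, and 0 without probe sets marked _x_at or _s_at. At an unadjusted limma p under 0.05 there were 2024 probe sets and 976 genes with the replicate block, 2339 and 1114 with the covariate, 2487 and 1171 with the classes, and 1129 genes without marked probe sets. With any array left out there were 1809 to 4292 probe sets and 848 to 1905 genes. Replicate numbers did not pair the samples: deviations of same-numbered arrays correlated at -0.10, -0.03 and -0.08 across genes. Of the arrays, 0 of 6 matched best with their own number. Some values turned direction, and the cause was not tested. Among them were values near 0 and values of dim probe sets. Brighter ones turned as well, Wnt7a at 1447647_at (0.19, SE 0.43) and the list gene Pax5 (0.26). With the covariate, Wnt5a at 1456976_at was 0.015 and at 1436791_at -0.073, Wnt7a at 1423367_at 0.15 and Dach1 at 1420694_a_at -0.34. With the classes as a block, Wnt5a at 1436791_at was -0.090, Wnt7a at 1423367_at 0.057, Lhx1 at 1421951_at -0.14 and Dach1 at 1420694_a_at -0.45. Wnt5a at 1456976_at was 0.0058 with the deposited scaling and 0.099 with weighted arrays, and Lhx1 at 1421951_at was -0.024 with the offset. Averaging probe sets gave -0.80 for Lhx1 and -0.53 for the list gene Pax5. When 1 array was left out, values turned for Wnt5a at 1456976_at (-0.14 to 0.11), 1436791_at (-0.10 to 0.12) and 1448818_at (-0.16 to 0.29), and for Wnt7a at 1447647_at (-0.21 to 0.46) and 1423367_at (-0.44 to 0.21). They also turned for Lhx1 at 1421951_at (-0.56 to 0.67), Dach1 at 1420694_a_at (-0.64 to 0.81) and Pax8 at 1446561_at (-0.32 to 0.49). The dim probe sets of Lhx1, Pax8, Wnt7a, Dach1 and Dach2 with the widest spread had standard errors from 0.42 to 1.29, and the number of arrays limits all of these values.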

Other observations

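Lhx1os is a gene next to Lhx1, on the side of the Lhx1 start site in the RefSeq GRCm38.p6 gene table, and is no member by its symbol. It was chosen after its values were seen. Its probe set 1439232_at gave 6.32, 6.17 and 6.55 in the wild-type and 4.90, 5.42 and 5.20 in the heterozygous arrays, in replicate order. Each heterozygous array lay below each wild-type array, 2.25-fold lower on the mean. The log2 change was -1.17 with a standard error of 0.20 (limma adjusted p = 0.507 over all probe sets; the exact permutation p was 0.1, the smallest possible). Both group means were below the array-wide median. The Lhx1 probe sets gave log2 changes of 0.13 and -1.74, with overlap between the genotypes.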
